A study of Mus musculus with 6 samples.

Results

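The unfolded protein response (UPR) was examined in cells sorted as quiescent muscle stem cells (qMuSCs) through 10 of its genes, out of 31053 genes in the deposited count table. The genes were taken by name from what is known of the pathway. They comprise the sensors Atf6 and Ern1, the transcription factors Xbp1, Atf4 and Ddit3, the chaperones Hspa5, Hsp90b1 and Calr, and Herpud1 and Dnajb9, which act in the disposal of misfolded proteins. All 10 were found under their symbols and all 10 passed the minimum on expression, a mean above 10 normalized counts, with at least 13 counts in every library.

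Both groups of mice carried a Pax7-nGFP reporter, by which the cells were sorted from hindlimb muscle, and 2 floxed alleles of Dio2, the gene of the type 2 deiodinase (D2) that activates thyroid hormone. Mice of both groups received tamoxifen and were 3 to 4 months old, and their muscles were at rest. The genotype was Pax7nGFP/+;Pax7+/+;Dio2Fl/Fl in the 3 control mice (WT; c124, c129 and c130) and Pax7nGFP/+;Pax7-CreERT2/+;Dio2Fl/Fl in the 3 mice in which Cre was to delete Dio2 (cD2KO; fl125, fl126 and fl128), with 1 library per mouse. The Cre recombinase is driven by Pax7 and is present in the cD2KO mice alone, so the deletion of Dio2 and the Cre allele cannot be told apart. The comparison asks whether the UPR genes differ between cells sorted as qMuSCs from these genotypes. How far Dio2 was lost in the sequenced cells is not shown by its counts, given below.

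The endoplasmic reticulum (ER) folds secreted and membrane proteins, and the UPR adjusts that capacity when unfolded proteins accumulate. It has 3 sensors in the ER membrane. IRE1 (the product of Ern1) cuts a short piece out of Xbp1 mRNA so that an active factor is made, ATF6 is cleaved in the Golgi to release a factor, and PERK (Eif2ak3) phosphorylates eIF2α, which slows translation in general and favors that of ATF4. In muscle stem cells, phosphorylation of eIF2α by PERK is known as a part of how quiescence is kept. Much of this signaling takes place on proteins or by splicing and translation, which gene-level RNA counts do not measure.

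Sequences of these genes that relate to the pathway are given first. They show which members match the letters of a UPR element in the promoter windows searched, and what the counts cannot resolve in Xbp1. The ER stress response element (ERSE) is CCAAT, 9 free bases and CCACG, read with NF-Y bound at CCAAT and ATF6 or XBP1 at CCACG. RefSeq promoter windows of 300 bases (GRCm38.p6, from 250 bases before the gene start) were at hand for 9 of the 10 members, without Atf6. On either strand, the ERSE letters were found in the windows of Hspa5, Hsp90b1 and Calr, against 39 of 32851 windows (0.119%). They are printed 5′ to 3′ on the strand of the gene with the element in capitals and 5 bases on each side. The element reads in reverse, as CGTGG and ATTGG, in the first site of Hsp90b1 and in Calr.
Hspa5, chr2:34772020-34772048, plus strand, 46 bases before the RefSeq start: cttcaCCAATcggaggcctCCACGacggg
Hsp90b1, chr10:86705528-86705556, minus strand, 88 bases before the start: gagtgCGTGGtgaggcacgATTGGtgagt
Hsp90b1, chr10:86705633-86705661, minus strand, 193 bases before the start: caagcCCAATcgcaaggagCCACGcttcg
Calr, chr8:84847070-84847098, minus strand, 143 bases before the start: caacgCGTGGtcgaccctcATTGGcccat

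The site of Hspa5 lies inside the gene as drawn in GENCODE M21, which begins upstream of the RefSeq start. Herpud1 carried the variant element ERSE-II, ATTGG, 1 free base and CCACG, which was in 12 of all windows (0.0365%). It also carried TTGCATCA, a core of the element bound by ATF4 together with C/EBP factors, which was in 294 windows (0.895%). The element TGACGTGG, bound by XBP1, was in none of the 9 windows and in 222 of all windows (0.676%). These are matches of letters only, with capitals marking the matched letters. Other variant letters and sites outside the windows were not searched. A window without a match therefore does not show that the gene lacks the element.
Herpud1, ERSE-II, chr8:94386372-94386392, plus strand, 41 bases before the start: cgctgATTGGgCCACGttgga
Herpud1, ATF4 element, chr8:94386312-94386329, plus strand, 104 bases before the start: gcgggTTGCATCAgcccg

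The stretch that IRE1 removes from Xbp1 mRNA has 26 bases and lies at chr11:5524282-5524307 on the plus strand of mm10, in the coding part of exon 4 of the GENCODE M21 transcript ENSMUST00000063084.15. It is printed in capitals with 12 bases of the transcript on each side. Reads from the unspliced and spliced forms fall on the same gene, and the deposited counts hold 1 value for both.
Xbp1: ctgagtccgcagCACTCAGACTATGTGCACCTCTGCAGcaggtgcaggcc

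The libraries held 2184073 to 3897787 counts on 13985 to 15491 genes, and 3 counts corresponded to 0.773 to 1.37 CPM (counts scaled to library size, with TMM factors). Of the 11633 genes tested, 621 were called higher in cD2KO (5.34%) and 770 lower (6.62%) at an unadjusted p under 0.05 in edgeR's quasi-likelihood test. After Benjamini-Hochberg adjustment over all of them, 33 higher and 57 lower genes had an adjusted p under 0.1. Dio2 itself had 21 (c124), 5 (c129) and 10 (c130) counts in WT and 15 (fl125), 5 (fl126) and 1 (fl128) in cD2KO, and was below the expression minimum. Its highest level, 6.83 CPM, was in the library labelled fl125, which goes against that label, and counts over the whole gene do not isolate the floxed part. Pax7 and the 11 other muscle stem cell markers were detected in every library, but so were all 14 immune and all 8 mural cell markers.

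Among the 10 members, 1 was called lower in the sorted cells of cD2KO mice (Hspa5) and 0 were called higher. That is a share of 10%, the smallest above 0 that 10 genes allow, against a background of 6.62%. The groups did not overlap in 0 of the 10, whereas they did not overlap in 18.1% of all genes tested. A log2 fold change below 0 was found in 8 members, including all 3 chaperones, and in 6038 of the 11633 genes tested. Over the 10 members the values ranged from -0.76 for Ern1 to 0.08 for Ddit3. The median was -0.24, beside -0.02 for all genes tested. The WT mouse c129 was the highest of the 6 in 7 members and the cD2KO mouse fl125 the lowest in 6. With c129 left out, 0 members were called lower, beside 399 of the 11537 genes tested in that fit, and the median was -0.09. With c124 left out, 1 was called lower (Hspa5), beside 805 of the 11493 genes tested in that fit, and the median was -0.42.

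**Figure D1:**
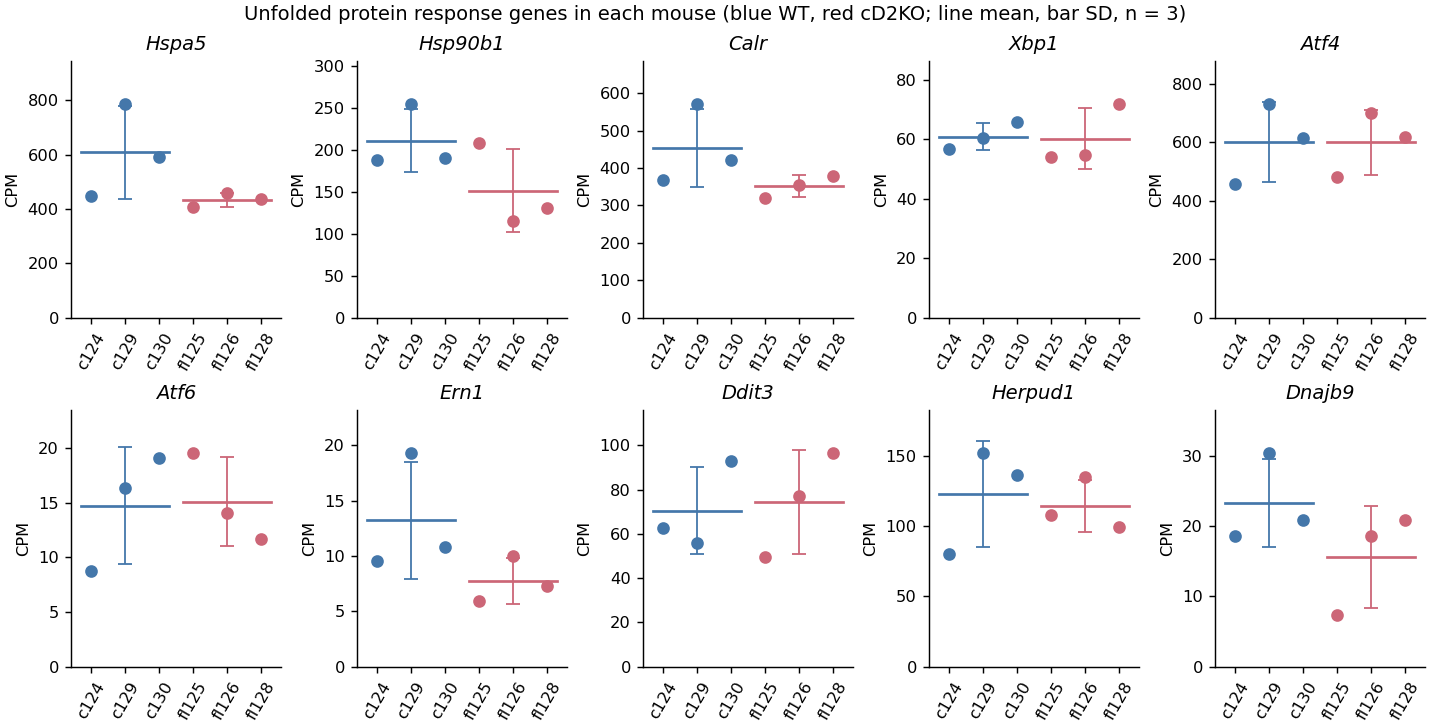
Level of each UPR gene in every mouse, in CPM on an axis that starts at 0, with WT mice in blue and cD2KO mice in red; horizontal lines are group means and bars are SD (n = 3 mice each). The groups overlap in all 10 genes, and c129 is the highest point in 7 of them.

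Hspa5 (ENSMUSG00000026864, chromosome 2 from 34771970 to 34777547) encodes BiP, the HSP70 chaperone of the ER lumen, which also holds the sensors inactive. Among WT mice, c124, c129 and c130 had 447, 787 and 592 CPM of it, and among cD2KO mice, fl125, fl126 and fl128 had 407, 459 and 435 CPM. The cD2KO mice lay close together, while the WT mice spread widely, and c124 lay below fl126, so the groups overlapped. WT averaged 608 ± 171 CPM and cD2KO averaged 434 ± 26.2 CPM (SD, n = 3 each). The log2 fold change was -0.49 (standard error 0.22, 95% interval -0.97 to -0.01), with an unadjusted p of 0.0471 and an adjusted p of 0.411 in edgeR's quasi-likelihood test. Hspa5 thus fell by 28.7% at the unadjusted threshold and did not pass the adjustment.

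The call of Hspa5 was lost when any mouse other than c124 was left out. Without c129 its log2 fold change was -0.24 (unadjusted p = 0.283 in edgeR's test), and without c124 it was -0.67 (unadjusted p = 0.0136). Leaving out c130, fl125, fl126 or fl128 gave unadjusted p of 0.0903, 0.101, 0.0867 and 0.0733 in the same test. The call was kept in 7 of the 16 other fits made, and the log2 fold change was below 0 in all of them.

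Hsp90b1 (ENSMUSG00000020048, chromosome 10 from 86690209 to 86705509) encodes GRP94, the HSP90 chaperone of the ER, which folds integrins and Toll-like receptors. It was at 187, 255 and 190 CPM in c124, c129 and c130 and at 208, 115 and 131 CPM in fl125, fl126 and fl128. Among cD2KO mice fl126 and fl128 lay under all WT mice, and fl125 lay among them. Its log2 fold change was -0.48 (standard error 0.24, 95% interval -0.999 to 0.03, unadjusted p = 0.0646 and adjusted p = 0.458 in edgeR's test). Without fl125 it was -0.74, with an unadjusted p of 0.00263 and an adjusted p of 0.0748, the lowest of the 16 other fits, in which it reached 0.832. The exons overlap 1810014B01Rik on the opposite strand and Gm15344 and Gm25745 on the same strand, so a part of the reads is uncertain.

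Calr (ENSMUSG00000003814, chromosome 8 from 84841850 to 84846934) encodes calreticulin, a calcium-binding chaperone of glycoproteins. Its level was 370, 572 and 420 CPM in c124, c129 and c130 and 321, 355 and 380 CPM in fl125, fl126 and fl128. Only the WT mouse c124 reached into the cD2KO range. The fitted log2 fold change was -0.37 (standard error 0.21, 95% interval -0.82 to 0.09, adjusted p = 0.529 in edgeR's test), and without c129 it was -0.14. A pseudogene, Calr-ps, may share reads with it.

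**Figure D2:**
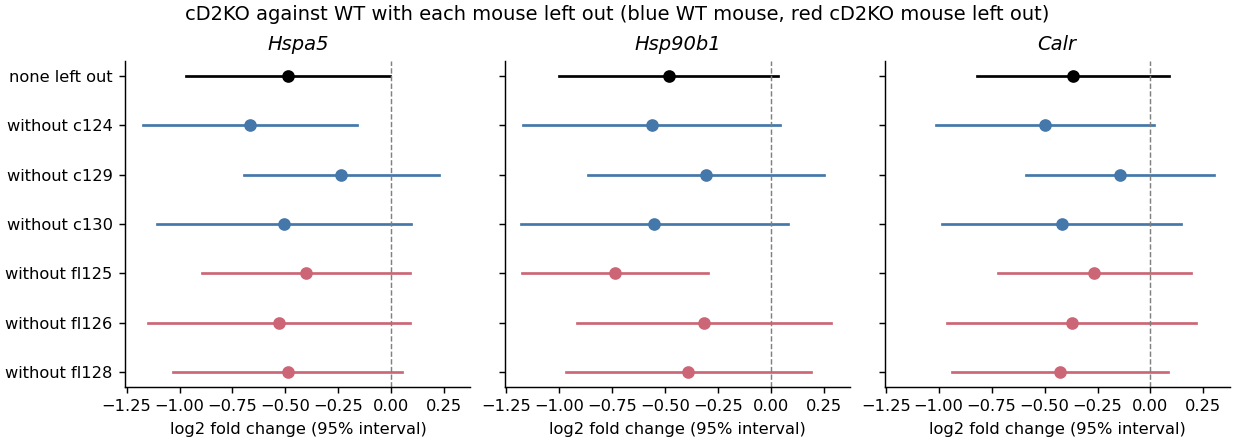
Log2 fold change of Hspa5, Hsp90b1 and Calr, cD2KO against WT, with 95% intervals, for all mice (black) and with each WT (blue) or cD2KO (red) mouse left out. All points lie below 0, and without c129 they lie nearest to 0, at -0.24, -0.31 and -0.14.

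Summed levels of marker lists are given beside these chaperones as measured. A list of 9 genes that are induced while muscle is dissociated held immediate early genes together with Hspa1a and Hspa1b. Its summed level was 3803, 11866 and 6400 CPM in c124, c129 and c130 and 3302, 4941 and 3428 CPM in fl125, fl126 and fl128. Its highest mouse was thus the mouse with the most Hspa5, and 7 of the 9 genes were called lower in cD2KO, against 6.62% of all genes tested. The groups did not overlap in only 1 of these 9 genes, beside 18.1% of all genes tested. Hspa1a and Hspa1b, the inducible cytosolic HSP70 genes, made up 3150 and 2399 CPM of the sum in c129. Summed immune markers ranged from 4537 to 8420 CPM in WT, highest in c129, and from 231 (fl125) to 2948 CPM in cD2KO, with 4 of 14 called lower (6.62% of all genes tested) and 13 of 14 not overlapping between the groups (18.1% of all genes tested).

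Summed muscle stem cell markers ranged from 1812 (c129) to 2369 CPM in WT and from 2594 to 3419 CPM (fl125) in cD2KO. Of these 12 genes Myf5, Cdh15, Itga7 and Des were called higher, and Cxcr4 lower. Over all genes tested, 5.34% were called higher and 6.62% lower, the background for the counts of each list here. Mural markers ranged from 5259 to 9139 CPM in WT and from 10740 to 15578 CPM in cD2KO, with 3 of 8 called higher. These 3 were Myh11 (mean 2192 CPM in WT, 4371 in cD2KO), Acta2 (2673 and 6007 CPM) and Tagln. The other mural markers were not called, with log2 fold changes of 0.00 (Rgs5), 0.25 (Cspg4), -0.06 (Pdgfrb), -0.36 (Kcnj8) and -0.23 (Abcc9). Endothelial markers ranged from 293 to 410 CPM in WT and from 245 to 306 CPM in cD2KO, with 5 of 9 tested called lower. Fibroadipogenic markers ranged from 3669 to 6248 CPM in WT and from 2246 to 5112 CPM in cD2KO (1 of 8 higher, 2 lower), and myofiber markers from 1803 to 4117 and from 3339 to 6348 CPM (0 of 7 called). The part of these cells in the differences of the chaperones was not tested. In RNA of whole sorted populations, fewer cells of a type and less RNA per cell cannot be told apart.

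**Figure D3:**
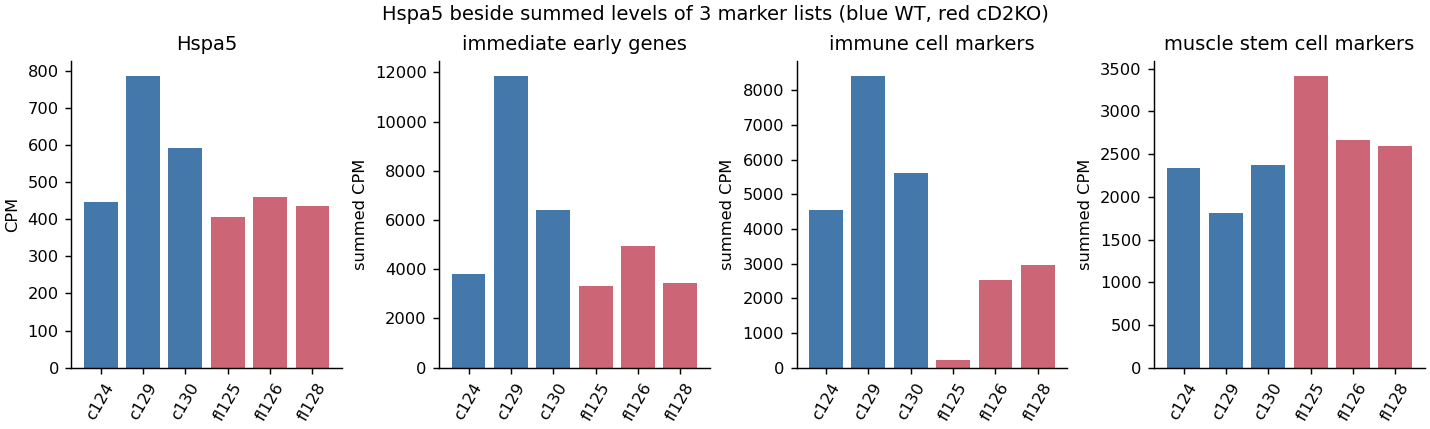
Hspa5 in CPM and the summed CPM of immediate early genes (a list that includes Hspa1a and Hspa1b), immune markers and muscle stem cell markers in each mouse, on axes that start at 0, WT in blue and cD2KO in red. Mouse c129 has the highest bar for Hspa5 (787 CPM), for immediate early genes (11866 CPM) and for immune markers (8420 CPM), and the lowest for muscle stem cell markers (1812 CPM).

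The sensors had few counts. Ern1 (ENSMUSG00000020715, chromosome 11 from 106394650 to 106487852) encodes IRE1α, the kinase and RNase that splices Xbp1. It was at 9.53, 19.3 and 10.8 CPM in c124, c129 and c130 and at 5.92, 9.97 and 7.26 CPM in fl125, fl126 and fl128, from 13 to 52 counts per library. The groups overlapped only in that fl126 exceeded c124. The log2 fold change, -0.76, was the furthest from 0 of the 10 members but had a standard error of 0.44 (95% interval -1.70 to 0.19, adjusted p = 0.533 in edgeR's test), and it was -0.36 at its nearest to 0 with a mouse left out.

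Atf6 (ENSMUSG00000026663, chromosome 1 from 170704674 to 170867771) encodes the sensor that becomes a transcription factor on cleavage. It was at 8.76, 16.3 and 19.1 CPM in c124, c129 and c130 and at 19.6, 14.1 and 11.7 CPM in fl125, fl126 and fl128. The mice of each group were spread over nearly the same range. Its log2 fold change was 0.04 (standard error 0.39), and the 95% interval of -0.80 to 0.87 holds folds from 0.576 to 1.83. Changes within that range were not detectable with so few mice, their spread and this depth. The sign turned with a mouse left out, between -0.24 and 0.27, and under total count scaling.

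The sensor kinase PERK (Eif2ak3) had 11, 7 and 2 counts in c124, c129 and c130 and 23, 5 and 2 in fl125, fl126 and fl128. It was below the expression minimum and was not tested. Atf6b, which encodes the relative of ATF6, was at 20.1, 24.1 and 21.9 CPM in the WT mice and at 45.1, 25.1 and 33.8 CPM in the cD2KO mice, in the same order. All cD2KO mice lay above all WT mice, fl126 by little. Its log2 fold change was 0.65 (standard error 0.29, unadjusted p = 0.0429 and adjusted p = 0.396 in edgeR's test). The call was lost in 7 of the 16 other fits, among them those without c124, c130, fl125 (0.46) or fl128.

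Xbp1 (ENSMUSG00000020484, chromosome 11 from 5520659 to 5525893) encodes the factor of the IRE1 branch. It was at 56.7, 60.5 and 65.8 CPM in c124, c129 and c130 and at 54.2, 54.7 and 72.0 CPM in fl125, fl126 and fl128. The WT mice lay within the range of the cD2KO mice. The log2 fold change of -0.01 had a standard error of 0.21 and a 95% interval of -0.47 to 0.44, that is folds from 0.722 to 1.36 (adjusted p = 0.988 in edgeR's test). The total of both mRNA forms thus showed no difference larger than these bounds, and splicing was not measured.

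Atf4 (ENSMUSG00000042406, chromosome 15 from 80255184 to 80257541) encodes the factor of the PERK branch, whose output is set mainly by translation. It was at 456, 731 and 614 CPM in c124, c129 and c130 and at 481, 698 and 617 CPM in fl125, fl126 and fl128. The 3 mice of each group lay at nearly the same 3 levels. WT averaged 600 ± 138 CPM and cD2KO averaged 599 ± 110 CPM (SD, n = 3 each), and the 95% interval of the log2 fold change, -0.49 to 0.48, was centered on 0 (adjusted p = 0.999 in edgeR's test). The sign of these differences near 0 in Xbp1 and Atf4 turned under several scalings.

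Ddit3 (ENSMUSG00000025408, chromosome 10 from 127290774 to 127296288) encodes CHOP, a target of ATF4 that promotes cell death under lasting ER stress. It was at 62.6, 56.1 and 92.9 CPM in c124, c129 and c130 and at 49.6, 77.0 and 96.6 CPM in fl125, fl126 and fl128. The groups were interleaved, and c129, the highest mouse for most members, was the lowest WT mouse here. The log2 fold change was 0.08 (standard error 0.27, 95% interval -0.49 to 0.66, adjusted p = 0.944 in edgeR's test), and it lay between -0.15 and 0.34 with a mouse left out. Its exons overlap Gm4189 and Mars on the opposite strand, and without a stated use of strand those reads cannot be told apart. They also overlap another entry named Ddit3 on the same strand, which strand would not separate.

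Herpud1 and Dnajb9 act downstream in ER-associated degradation (ERAD). Herpud1 (ENSMUSG00000031770, chromosome 8 from 94386438 to 94395377) encodes a membrane protein of the complex that passes misfolded proteins to the proteasome. It was at 80.1, 152 and 137 CPM in c124, c129 and c130 and at 108, 135 and 99.8 CPM in fl125, fl126 and fl128. The cD2KO mice all lay within the WT range. Their log2 fold change was -0.10 (standard error 0.24, 95% interval -0.63 to 0.42, adjusted p = 0.921 in edgeR's test) and turned to 0.10 without c129.

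Dnajb9 (ENSMUSG00000014905, chromosome 12 from 44205559 to 44210326) encodes ERdj4, a co-chaperone of BiP and a target of XBP1. It was at 18.5, 30.4 and 20.9 CPM in c124, c129 and c130 and at 7.29, 18.6 and 20.8 CPM in fl125, fl126 and fl128. The library of fl125, with 16 counts, stood below the others, which were interleaved. The log2 fold change was -0.56 (standard error 0.39, 95% interval -1.38 to 0.27, adjusted p = 0.622 in edgeR's test), and with a mouse left out it ranged from -0.82 to -0.19. Its exons overlap Mir5627 on the opposite strand over 14 bases.

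Set side by side per kilobase of exon, the mean WT levels in CPM per kb were 255 ± 58.6 for Atf4, 158 ± 36.6 for Calr and 144 ± 40.4 for Hspa5 (SD, n = 3). The WT ranges of Atf4 and Calr overlapped, as did those of Calr and Hspa5. Next came Herpud1 at 52.7 ± 16.3, Hsp90b1 at 52.3 ± 9.42 and Ddit3 at 41.2 ± 11.5 CPM per kb, which overlapped among neighbors and lay apart from the first 3. Xbp1 at 18.8 ± 1.41 and Dnajb9 at 9.14 ± 2.47 CPM per kb each stood apart, and Ern1 and Atf6, at 1.62 ± 0.65 and 1.60 ± 0.58 CPM per kb, overlapped. In cD2KO mice the ranges of Atf4, Calr and Hspa5 lay apart from each other. Whether reads came from whole transcripts or from their ends is not given in the sources used here, so this order is approximate.

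Beyond the members, 132 further genes of the pathway were placed in 5 lists, and 122 were tested. Of these, 6 were called lower (4.92%, against 6.62% of all genes tested) and 1 higher (0.820%, against 5.34%). Their median log2 fold change was -0.15, with 85 of 122 below 0, beside 6038 of the 11633 genes tested. The groups did not overlap in 15 of the 122, a smaller share than the 18.1% of all genes tested. The shares called were under the background in both directions. Without c129, 1 gene was called lower, beside 399 of the 11537 genes tested in that fit, and the median was -0.11.

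**Figure D4:**
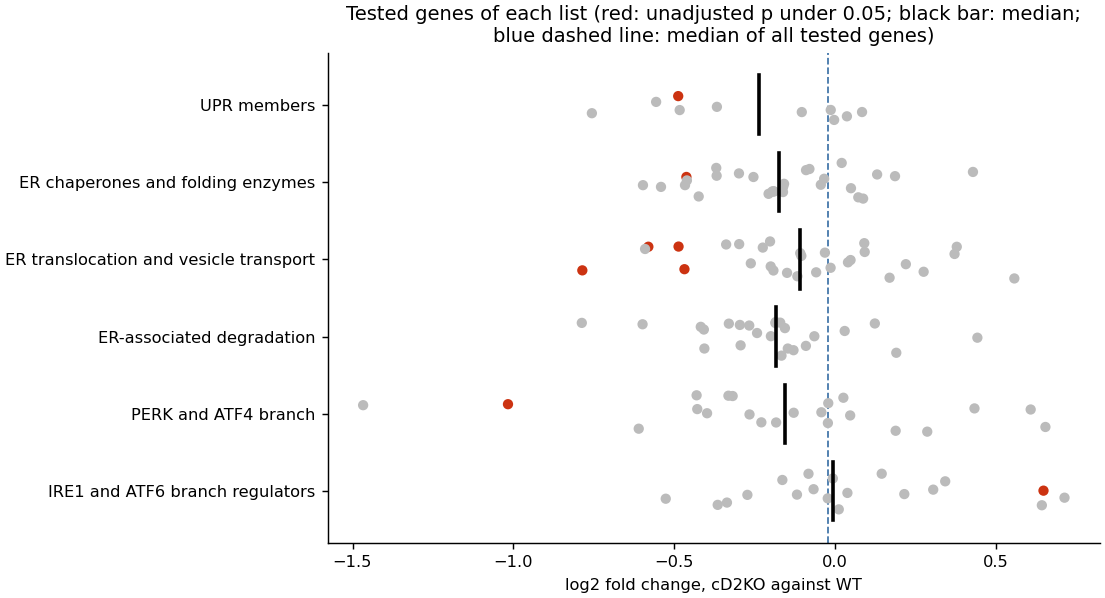
Log2 fold change, cD2KO against WT, of every tested gene in the member list and the 5 pathway lists; red points have an unadjusted p under 0.05, black bars are list medians and the blue dashed line is the median of all tested genes (-0.02). Medians run from -0.24 (members) to -0.01 (IRE1 and ATF6 regulators), and red points number 1, 1, 4, 0, 1 and 1 from top to bottom.

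Over all genes tested, 6.62% were called lower and 5.34% higher. Among 28 tested ER chaperones and folding enzymes, 1 was called lower (3.57%) and 0 higher, with a median log2 fold change of -0.18. This was Pdia6, a protein disulfide isomerase, at 78.8, 88.0 and 114 CPM in c124, c129 and c130 and at 59.2, 77.7 and 66.3 CPM in fl125, fl126 and fl128. All cD2KO mice lay under all WT mice, by little between fl126 and c124. Its log2 fold change was -0.46 (standard error 0.21, unadjusted p = 0.0493 and adjusted p = 0.417 in edgeR's test), and the call was lost in 10 of 16 other fits. Its exons overlap Atp6v1c2 on the opposite strand.

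ER translocation and vesicle transport had 4 genes called lower and 0 higher of 29 tested, a share of 13.8% against 6.62% of all genes tested, with a median of -0.11. Of these 4 calls, 3 were lost without c129. Sec61b encodes a subunit of the channel through which proteins enter the ER, and was at 54.1, 43.4 and 62.3 CPM in c124, c129 and c130 and at 37.8, 32.3 and 23.1 CPM in fl125, fl126 and fl128. Its groups were separate, its log2 fold change was -0.79 (standard error 0.26, unadjusted p = 0.00965 and adjusted p = 0.223 in edgeR's test), and the call was kept in all 16 other fits. Srp19, of the signal recognition particle, was at 78.8, 85.0 and 81.8 CPM in the WT mice and at 54.2, 60.9 and 62.2 CPM in the cD2KO mice, in the same order. Here both groups were tight and separate, and the difference was -0.47 on the log2 scale (standard error 0.19, adjusted p = 0.367 in edgeR's test). Sec11c, a signal peptidase subunit, and Serp1, which associates with the channel, had log2 fold changes of -0.58 and -0.49 (adjusted p = 0.390 and 0.389 in edgeR's test), and the groups overlapped in Serp1 only. The calls lost without c129 were those of Srp19, Sec11c and Serp1, which were lost in 6, 7 and 7 of the 16 other fits. Serp1 overlaps Eif2a on the opposite strand, which leaves a part of its count uncertain.

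In the ERAD list, 0 of 24 tested genes were called in either direction in edgeR's test, although 20 lay below 0 (median -0.18, smallest unadjusted p = 0.0682). Of all genes tested, 6.62% were called lower and 5.34% higher, the background for the lists here. The PERK and ATF4 branch had 1 of 22 called lower (4.55%) and 0 higher, with a median of -0.16. It was Eif2ak2, the kinase PKR that double-stranded RNA activates, which phosphorylates the same site as PERK but is not an ER sensor. Eif2ak2 was at 25.2, 46.4 and 24.7 CPM in c124, c129 and c130 and at 18.2, 15.5 and 13.9 CPM in fl125, fl126 and fl128. The groups were separate, and Eif2ak2 fell by 1.02 on the log2 scale (standard error 0.33, unadjusted p = 0.00792 and adjusted p = 0.206 in edgeR's test), and without c129 it was -0.64 and not called. Its exons also overlap genes on the opposite strand, n-R5s29 and Gm26637. Among IRE1 and ATF6 regulators, 1 of 19 was called higher (5.26%), Atf6b as given above, and 0 lower, with a median of -0.01.

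**Figure D5:**
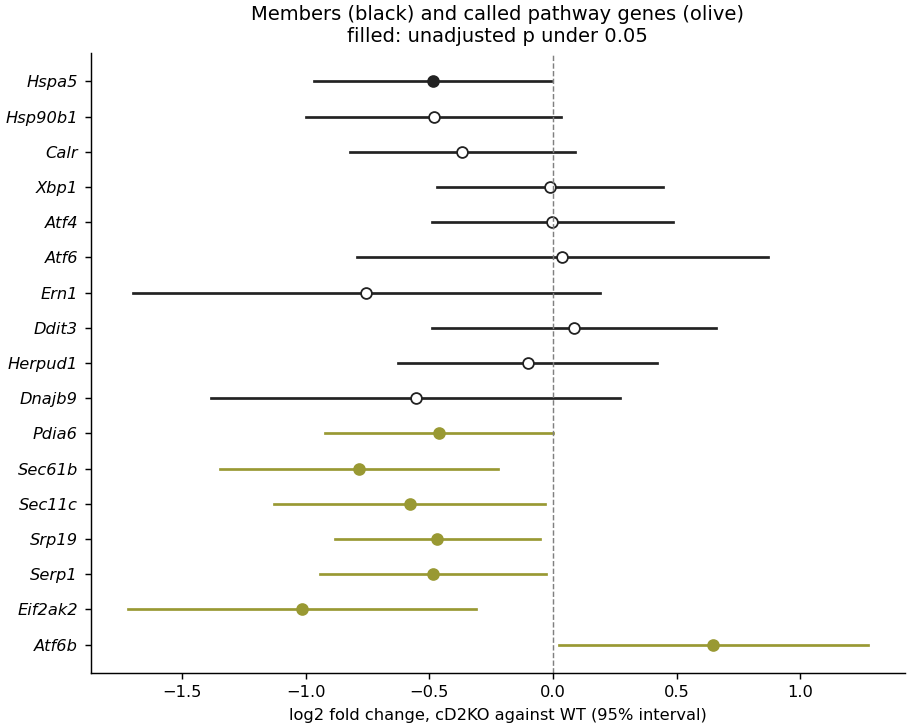
Log2 fold change, cD2KO against WT, with 95% intervals for the 10 members (black) and the 7 called genes of the pathway lists (olive); filled points have an unadjusted p under 0.05. Of the members only Hspa5 (-0.49) has an interval that stays below 0, and Atf6b (0.65) is the only called gene above 0.

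The genes outside the lists whose pattern over the 6 mice was most like that of Hspa5 were found from the root mean square (RMS) difference of centered log2 CPM. They were Phlda1 (RMS difference 0.0288), Ubl3 (0.0536), Ankrd44 (0.0731), Galnt1 (0.0776) and Dedd2 (0.0830). Phlda1 was at 84.7, 154 and 117 CPM in c124, c129 and c130 and at 76.1, 88.4 and 85.9 CPM in fl125, fl126 and fl128. That c129 was the highest mouse in all 5, as for Hspa5, follows from how they were picked. Of the members, Calr was the nearest to Hspa5 (0.102, with 20 tested genes nearer), followed by Ern1 (0.224), Herpud1 (0.244) and Atf4 (0.258), and Ddit3 was the furthest (0.502).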

How the data were processed

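RNA of sorted qMuSCs was sequenced from 3 WT and 3 cD2KO mice, grouped by the genotype in the labels. Extraction used the RNeasy Mini Kit and sequencing a commercial service, and the deposited values are raw counts of reads per gene, not normalized. The submitters' processing notes name bcl2fastq, STAR 2.6.0a, HTSeq 0.9.1 and mm10. Annotation, strand setting and duplicate handling are not given in the sources used here. Symbols and coordinates came from GENCODE M21, which holds 30934 of the 31053 identifiers. Whether the mice shared a litter or a day of sorting is not given.

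Genes were tested if their DESeq2-normalized counts averaged above 10, TMM factors were computed on them, and all 6 mice were fitted with edgeR 4.0.16 in R 4.3.3 (robust quasi-likelihood test, no covariate). Calls were made at an unadjusted p under 0.05, as the study draws its line, and the Benjamini-Hochberg adjustment ran over every gene tested. Fold changes are cD2KO against WT, SD are between mice, intervals are from the fit, and the floor of 3 counts covers counting error only. The fits were tested on simulated data. Alternatives were DESeq2 1.42.0, limma 3.58.1 (voom), other scalings and minima, non-robust estimation, adjusted thresholds and leaving out each mouse. TMM factors over all genes were a later addition, chosen after seeing the data.

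The members and gene lists were chosen with earlier results of these data known. Named were the 10 members, up to 4 called genes in each direction of each pathway list by p, Eif2ak3 and Atf6b, and the 5 genes nearest to Hspa5. Dio2, the called muscle stem cell markers and the mural markers, with Hspa1a, Hspa1b and the genes with an ERSE, were named after their values were seen.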

Additional observations from a re-analysis of the deposited data

How the results depend on the processing

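The 3 mice per group and the depth limit what can be said: a difference in Ern1, Atf6 or Dnajb9, with few counts per library, would have to be large to pass. The log2 fold changes of Hspa5, Hsp90b1, Calr, Ern1 and Dnajb9 stayed below 0 in every fit. The 1 member called lower became 0 with DESeq2 size factors, TMM factors over all genes, non-robust estimation and adjusted p under 0.1 or 0.05, and 2 with total count scaling and with no minimum, where Hsp90b1 was also called. With voom and without fl125 the count remained at 1, but the gene called was Hsp90b1 and not Hspa5. Of pathway genes, the 1 called higher became 0 with voom, total count scaling, a minimum of 50 and both adjusted thresholds, 2 with DESeq2 size factors, TMM over all genes and non-robust estimation, and 5 with no minimum. The 6 called lower became 3 with DESeq2's Wald test and 0 at both adjusted thresholds. With single mice left out, members called lower numbered 0 to 1, pathway genes called higher 1 to 2 and lower 1 to 9. Over all genes these fits gave 402 (without fl128) to 933 (without fl125) higher and 399 (without c129) to 874 lower. Without a minimum 939 genes were higher, with a minimum of 50 there were 505 lower, at an adjusted p under 0.1 there were 33 higher and 57 lower, and under 0.05 there were 1 higher and 0 lower. Total count scaling gave 439 higher and 953 lower (31.5% of calls higher, against 44.6%), and without c129 the split was 499 and 399 (55.6%).

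Signs near 0 turned. Xbp1 became 0.014 with DESeq2's test, 0.0077 with its size factors, and 0.022 with no minimum and with TMM over all genes. Atf4 became 0.024 with DESeq2's test, 0.017 with its size factors, 0.0081 with voom, and 0.035 with no minimum and TMM over all genes. Atf6 became -0.026 with total count scaling. With single mice left out the ranges were -0.16 to 0.10 for Xbp1, -0.17 to 0.19 for Atf4, -0.24 to 0.27 for Atf6, -0.15 to 0.34 for Ddit3 and -0.34 to 0.10 for Herpud1. Ern1 and Atf6 did not pass the minimum of 50. The cause of these changes was not tested. No paired analysis was possible because the labels give the mice no shared replicate numbers.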

Other observations

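The genes with an ERSE in the RefSeq window were described as a group, with no test, since the group was drawn up after the data had been seen. Of 37 such genes 14 were tested, 2 were called lower (Hspa5 and Pdia6) and 0 higher, where 6.62% of all genes tested were lower and 5.34% higher. A log2 fold change below 0 was found in 11 of the 14 and in 6038 of the 11633 genes tested. The median was -0.20 beside -0.02 for all genes tested. Without the 3 members, 11 were tested, 1 was called lower, 8 lay below 0 and the median was -0.16.

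Several of these genes also belong to the ER. Canx, the membrane-bound relative of calreticulin, differed by -0.19 on the log2 scale (standard error 0.19), Syvn1, the ubiquitin ligase of ERAD, -0.24 (standard error 0.33), and Creld2, an ER protein induced by stress, -0.16 (standard error 0.36). Dnajc3, a co-chaperone of BiP, was at 0.05 (standard error 0.21). Each of these 4 values was within its standard error or close to it.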
